A study of Mus musculus with 12 samples.

Results

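Cytosolic ribosomal protein genes were followed across 6 groups of mouse myeloid cells, on 12 microarrays, 2 to a group. A member was an array row annotated to a single gene symbol of the form Rpl, Rps, Rplp or Rpsa with its number and suffix. Pseudogene symbols and the S6 kinase genes were left out, and the brightest row by mean over all arrays stood for each symbol. The rule gave 45 of the 30145 genes that had a row with a single symbol. By name, 15 encode small-subunit proteins and 18 encode large-subunit proteins. Another 6 are diverged paralogs (Rpl3l, Rpl7l1, Rpl10l, Rpl22l1, Rpl39l and Rps27l). The last 6 are retroposed or extra copies and a binding partner (Rpl6l, Rpl32l, Rps3a2, Rps3a3, Rps23rg1 and Rps19bp1), a class set apart after the rows were seen. Several well-known ribosomal protein genes, among them Rpl3, Rpl5, Rpl10, Rpl13a, Rplp1, Rplp2, Rps6, Rps27 and Rps27a, had no row with a single symbol and were not analysed here.

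The cells were HoxB8-ER cells of C57BL/6 background: bone marrow progenitors immortalised by HOXB8 fused to the hormone-binding domain of the estrogen receptor. They divide as promyelocyte-like cells in 0.5 µM estradiol and become neutrophils in 6 days once it is withdrawn. The groups were undifferentiated wild-type cells, undifferentiated Ezh2-/- cells from littermates, the neutrophils that each gave rise to, and wild-type neutrophils treated with either vehicle or GSK343. EZH2 is the enzyme that methylates lysine on histone H3 to silence genes, and GSK343 blocks its catalytic activity. GSK343 is listed at 0.5 µM for 9 days with the samples but at 1 µM in the series text, so its dose is not settled. All 6 groups carry the HOXB8-ER transgene. The number of lines per genotype and whether replicates were separate cultures are not given, so genotype and cell line cannot be told apart. The p-values reflect the spread between these arrays alone, which may be technical. Members can shift together from array to array, so counts of members are not counts of replicates. Fewer cells of a type and less RNA per cell cannot be told apart in such bulk samples.

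Ribosomal proteins assemble with ribosomal RNA in the nucleolus into a small subunit, which reads the message, and a large subunit, which joins amino acids. Their genes are transcribed together at high rates in growing cells, and MYC and related growth signals are known to raise ribosome production. Most of their messages begin with a run of pyrimidines, the 5' terminal oligopyrimidine (TOP) motif, through which the mTOR pathway and LARP1 control their translation. Maturing granulocytes are known to stop dividing and to lose prominent nucleoli.

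Start-site sequences are shown for the 5 members with the strongest falls on wild-type differentiation among those with their own row and a single annotated start, and for Rpl7l1, a member that went its own way below. They come from RefSeq (GRCm38.p6), 60 bases each, 30 on either side of the annotated start, written 5′ to 3′ on the gene's strand. Capitals mark the longest run of C and T in each.
Rpsa, chr9:120127736-120127795, plus strand: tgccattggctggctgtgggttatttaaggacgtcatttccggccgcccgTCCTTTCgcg
Rpl22l1, chr3:28805478-28805537, plus strand: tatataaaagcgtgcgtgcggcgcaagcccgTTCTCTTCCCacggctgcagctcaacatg
Rpl39, chrX:37085193-37085252, minus strand: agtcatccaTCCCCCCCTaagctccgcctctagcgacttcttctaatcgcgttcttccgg
Rps26, chr10:128626477-128626536, minus strand: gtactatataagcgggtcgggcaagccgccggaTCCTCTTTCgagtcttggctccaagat
Rps4x, chrX:102189362-102189421, minus strand: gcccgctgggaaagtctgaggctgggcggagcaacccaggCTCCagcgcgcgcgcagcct
Rpl7l1, chr17:46782627-46782686, minus strand: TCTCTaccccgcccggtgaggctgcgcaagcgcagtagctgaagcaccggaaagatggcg

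The run was 10 bases long in Rpl22l1 and began at base 2 of the annotated transcript, and in Rps26 it was 9 bases long and began at base 4. In Rpsa it was 7 bases long and began at base 21, and in Rps4x (4 bases) and Rpl7l1 (5 bases) it was short. In Rpl39 its 9 bases lay upstream of the start. The Rpl39 window also held a run of 8 pyrimidines after the start, left in small letters because it was not the longest. A run of at least 8 pyrimidines on the gene's strand lay within these 60-base windows in 16 of 34 promoters (47.1%) of 28 standard ribosomal protein members, against 22.9% of 32851 promoters in the RefSeq table. The letters CCGGAA, the core recognised by ETS-family transcription factors, were looked for on either strand of the 300 bases from 250 before to 50 after the start. They were present in 17 of the 34 (50%), against 14.9% of all promoters. For both counts, member promoters on chromosome 18, where Rps14 lies, were left out. The full set of promoters kept that chromosome and also held the promoters of the members. The genes shown with this core were Rpsa, Rpl39, Rps26 and Rpl7l1. These are matches of letters near annotated starts, which may differ from the start used in these cells, and several promoters can belong to the same gene.

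On the array, values are log2 signals, so that a difference of 1 is a 2-fold change. Over the 65956 transcript clusters, array medians ran from 4.54 to 4.65 for the 8 genotype arrays but from 3.88 to 3.96 for the 4 drug arrays, so groups were compared only within each of these ranges of array numbers. The background limit, the 95th percentile of 23 antigenomic probe sets, lay between 4.83 and 5.79. Ezh2, the targeted gene, was at 11.57 and 11.65 in undifferentiated wild-type cells and at 9.10 and 9.45 in undifferentiated Ezh2-null cells. In neutrophils it was at 8.31 and 8.34 in wild-type cells but at 8.74 and 9.02 in the cells labelled Ezh2-null, a difference of 0.55 (adjusted p = 0.0501). The transcript therefore does not bear out the label in neutrophils, and directions given for these cells depend on that label. Neutrophil markers were above background for 8 of 8 genes on every neutrophil array. On both labelled-null neutrophil arrays, however, 6 of 6 mast cell and basophil markers and 6 of 6 erythroid markers were also above background. On each wild-type neutrophil genotype array 1 of 6 of either list was. Dividing-cell markers averaged 13.23 and 13.47 in labelled-null and 9.44 and 10.10 in wild-type neutrophils. The name neutrophils therefore follows the label for these cells.

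Ribosomal protein genes were among the bright genes throughout. Of the 45 members, 42 lay above background on all 12 arrays, and Rpl3l, Rpl10l and Rpl39l, whose products are known from muscle and testis, lay below it on all 12. No member was at the top of the scale: the highest member value was 18.29, for Rpl4, below the brightest cluster of every array. The median member ranked between the 85.8th and 92.5th percentile of single-symbol clusters. In undifferentiated cells the median member signal was 11.89 and 11.77 on the wild-type arrays and 11.87 and 11.85 on the Ezh2-null arrays. It was 9.93 and 10.45 in wild-type neutrophils and 11.06 and 11.03 in neutrophils labelled Ezh2-null, and on the drug arrays 9.49 and 9.35 with GSK343 and 9.29 and 8.93 with vehicle. The medians of the undifferentiated groups overlapped, and on every other pair of groups compared within a range the arrays stood apart.

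**Figure D1:**
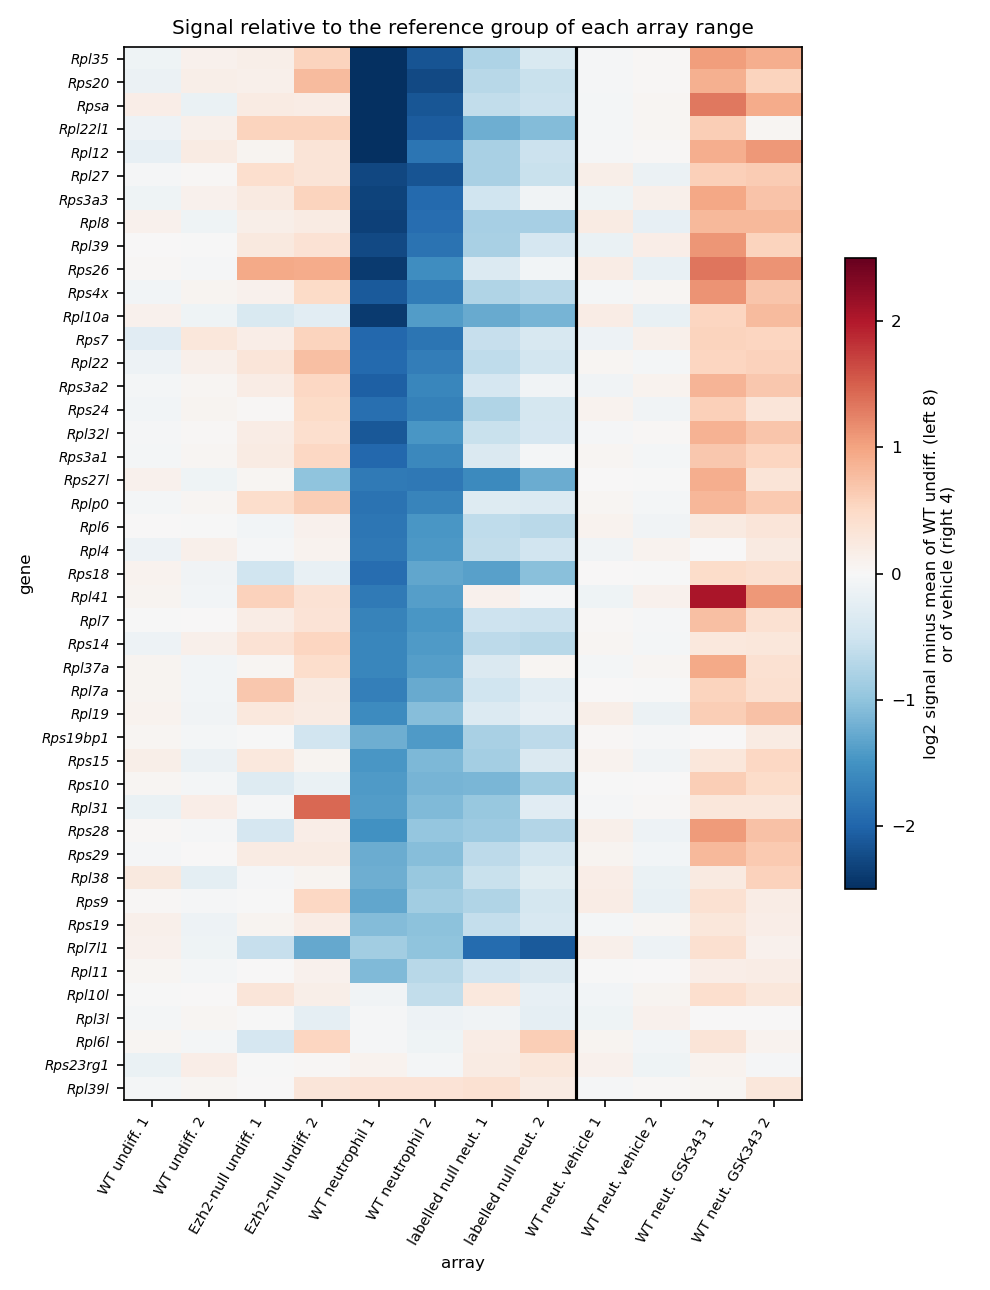
Signal of the 45 members (rows, ordered by their change on wild-type differentiation) on each of the 12 arrays (columns), as the log2 difference from the mean of undifferentiated wild-type cells for the 8 genotype arrays and from the mean of vehicle for the 4 drug arrays. The end colours also cover values beyond the scale. Both wild-type neutrophil columns are blue for nearly all members, the columns labelled null are paler, and the GSK343 columns are faintly red.

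Differentiation of wild-type cells was the first comparison, and asked how the ribosomal protein genes change as progenitors become neutrophils. Of the 45 members, 39 fell and 0 rose (limma, Benjamini-Hochberg adjusted p under 0.05 over all 65956 clusters). Over all clusters 12.2% fell and 13% rose. Among the 10340 single-symbol clusters above background on all 12 arrays, called bright clusters from here on, 42% fell and 22.1% rose. A total of 37 members fell by at least 2-fold, against 8.58% of all clusters and 32.7% of bright clusters. The median member difference was −1.61, against 0.03 over all clusters and −0.37 over bright clusters. Measured against the bright clusters instead, the member median was −1.24. In 41 members both neutrophil arrays lay below both undifferentiated arrays, against 26.9% of all clusters and 53.3% of bright clusters.

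All 15 small-subunit members fell in wild-type cells, by between 1.05 and 2.45 log2 units. Rpsa, which encodes a small-subunit protein first described as a laminin receptor, was at 15.17 and 14.86 in undifferentiated cells and at 12.38 and 12.87 in neutrophils. The groups did not overlap, and the fall was 5.23-fold (log2 difference −2.39, SE 0.195, adjusted p = 2.26e-05). Rps20, part of the head of the small subunit, fell from 9.84 and 10.13 to 7.33 and 7.73, a difference of −2.45 (SE 0.232, adjusted p = 5.11e-05). Rps26, which lies where the message leaves the small subunit, went from 15.57 and 15.51 to 13.16 and 13.98 (−1.97, SE 0.25). Its neutrophil arrays were further apart than those of most members, but both lay below both undifferentiated arrays. Rps14, whose loss of a single copy is known in a human myelodysplastic syndrome, fell from 7.70 and 7.95 to 6.19 and 6.42 (−1.52, SE 0.134). Rps19, the gene most often mutated in Diamond-Blackfan anaemia, had the smallest fall of the subunit, from 8.37 and 8.14 to 7.17 and 7.24 (−1.05, SE 0.13).

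Of the 18 large-subunit members, 17 fell, by between 0.90 and 2.50 log2 units. Rpl35, which sits at the exit of the peptide tunnel, went from 16.07 and 16.27 to 13.32 and 14.02 (−2.50, SE 0.238, adjusted p = 5.43e-05). This was the largest fall of a member row, but the row is on another chromosome. The Rpl35 row on the gene's own chromosome fell by 2.01, less than Rps20, Rpsa, Rpl22l1, Rpl8 and Rpl39 among others. Rplp0, the base of the stalk that recruits elongation factors, fell from 13.34 and 13.42 to 11.54 and 11.73 (−1.74, SE 0.125, adjusted p = 1.14e-05). Rpl12, its neighbour at the stalk base, fell from 17.42 and 17.84 to 15.00 and 15.80 (−2.23, SE 0.253). For both stalk genes each neutrophil array lay below each undifferentiated array. Rpl11, which with Rpl5 can bind and inhibit MDM2, had the smallest called fall of the large subunit, from 7.87 and 7.76 to 6.71 and 7.12 (−0.90, SE 0.143). Rpl38, known for its part in translating Hox messages in mouse embryos, fell by 1.09 (SE 0.212). Rpl31 did not pass the test (−1.25, SE 0.404, adjusted p = 0.0507), although its arrays did not overlap. Its SE draws on all groups, and its SD was 1.04 in undifferentiated Ezh2-null cells. In the wild-type groups it was 0.22 and 0.20. When limma was fitted to only the arrays compared, Rpl31 passed as lower (adjusted p = 0.00722).

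Outside the standard ribosomal proteins the picture was mixed. Of the 6 paralogs, Rpl22l1 (−2.29), Rps27l (−1.77) and Rpl7l1 (−0.93) fell. The other 3 were the members below background (Rpl3l −0.07, Rpl10l −0.35, Rpl39l 0.35), and their differences are not measured levels of RNA. Of the 6 copies and partners, Rps3a3 (−2.12), Rps3a2 (−1.84), Rpl32l (−1.78) and Rps19bp1 (−1.32), which encodes a regulator of SIRT1, fell. Rpl6l (−0.07) and Rps23rg1 (0.03) were not called, at 12.60 and 12.50 against 12.52 and 12.45 for Rpl6l. Relative to the bright clusters, 39 members still passed as lower, and Rpl39l (0.71, adjusted p = 0.00625) and Rps23rg1 (0.39, adjusted p = 0.0485) passed as higher.

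**Figure D2:**
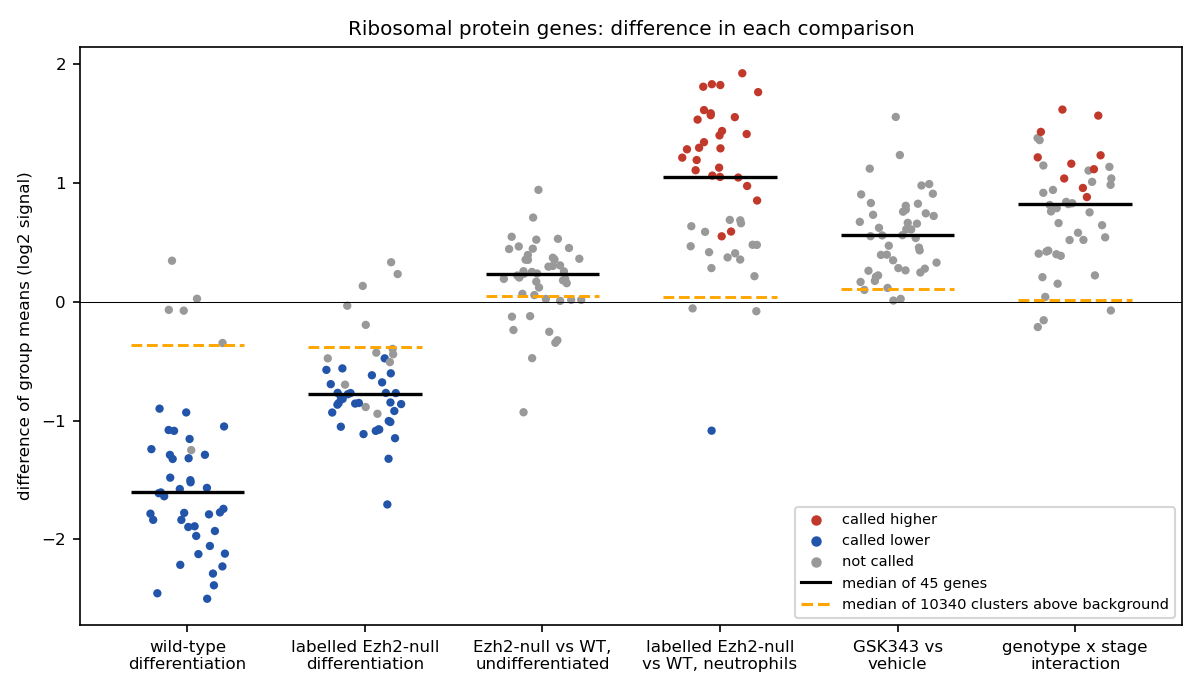
Difference of group means (log2 signal) for each of the 45 members in the 6 comparisons, coloured by the call at adjusted p under 0.05, with the median of the members (black) and of the 10340 bright clusters (dashed). The member median is −1.61 for wild-type differentiation, −0.78 for differentiation of cells labelled Ezh2-null, 0.24 and 1.05 for genotype in undifferentiated cells and neutrophils, and 0.56 for GSK343.

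In cells labelled Ezh2-null the same differentiation step gave smaller values. Here 32 members fell and 0 rose, against 10.7% and 11.7% of all clusters and 36.2% and 15.1% of bright clusters. Only 10 fell by at least 2-fold (5.88% of all clusters, 22.1% of bright clusters). The median member difference was −0.78, while that of the bright clusters was −0.38, close to its wild-type value. Small-subunit members fell in 14 of 15 cases and large-subunit members in 13 of 18. Rpl22l1 had the largest fall, from 9.93 on both undifferentiated arrays to 8.15 and 8.30 (−1.71, SE 0.207, adjusted p = 0.000369). Rpl31 (−1.32), Rps26 (−1.15), Rps14 (−1.11) and Rpl7l1 (−1.09) came next. The place of Rpl31 leaned on a single array, as it went from 8.16 and 9.63 to 7.24 and 7.91. Rpsa went from 15.22 and 15.20 to 14.40 and 14.48 (−0.77, SE 0.195, adjusted p = 0.0198), with no overlap. The count rested on single arrays: 20 members fell without undifferentiated Ezh2-null array 2 and 12 without labelled Ezh2-null neutrophil array 1. It was also 13 relative to the bright clusters, where the median was −0.52, and 12 when only the 4 arrays compared were fitted.

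Between undifferentiated cells of the 2 genotypes no member passed the test in either direction by limma, against 1.65% of all clusters higher and 1.34% lower in Ezh2-null cells, or 2.25% and 3.32% of bright clusters. At an unadjusted p under 0.05, 7 members were higher and 1 lower (6.41% and 5.92% of all clusters). The median difference was 0.24, and 37 of 45 differences were positive, compared with 55.8% of bright clusters. Without undifferentiated Ezh2-null array 2 the median was 0.12, with 31 positive. In 21 members both Ezh2-null arrays lay above both wild-type arrays and in 4 they lay below (18% and 19.5% of all clusters, 25% and 19.1% of bright clusters). The highest value was for Rps26, at 16.49 and 16.48 in Ezh2-null against 15.57 and 15.51 in wild-type cells (0.94, 95% confidence interval 0.38 to 1.51, adjusted p = 0.102). Rplp0 had the lowest adjusted p (0.53, interval 0.25 to 0.81, adjusted p = 0.0649). Rpl7l1 stood at the other end, at 12.55 and 11.85 against 13.24 and 13.02 (−0.93, interval −1.44 to −0.42, adjusted p = 0.0716). For Rpsa the difference was 0.19 (interval −0.25 to 0.63). Without undifferentiated Ezh2-null array 1, Rpl22 and Rpl31 passed as higher and Rpl7l1 as lower, and without either wild-type neutrophil array, which adds to the shared estimate of spread, Rps26 passed as higher. The neutrophil markers were above wild type in 8 of 8 cases in these Ezh2-null cells, 2 of them called (Ltf and S100a9). Also called were the progenitor markers Ctsg (−4.00) and Elane (−3.56), the basophil marker Mcpt8 (−4.67) and the macrophage marker Adgre1 (−2.30) as lower and the erythroid marker Gata1 (0.62) as higher, while no dividing-cell or lymphoid marker was called. Their part in the ribosomal protein values was not tested.

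In neutrophils most members were higher in the cells labelled Ezh2-null than in wild-type cells. A total of 28 were higher and 1 lower, against 6.75% and 5.06% of all clusters and 20.3% and 14% of bright clusters. At least 2-fold was reached by 24 of the higher members (4.56% of all clusters, 14.4% of bright clusters). The median member difference was 1.05, or 0.96 relative to the bright clusters, whose own median was 0.04. In 40 members both labelled-null arrays lay above both wild-type arrays, against 23.6% of all clusters and 41.3% of bright clusters. The differentiation comparisons use the same neutrophil arrays, so these values and the falls above are not independent of each other.

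Among small-subunit genes, 10 of 15 were higher in the labelled-null neutrophils and 0 were lower. Rpsa was at 14.40 and 14.48 against 12.38 and 12.87 in wild-type neutrophils. That gap of 1.81 (SE 0.195, adjusted p = 0.000418), 3.51-fold, exceeded the spread of either group. Rps26 was at 15.20 and 15.48 against 13.16 and 13.98 (1.77, SE 0.25, adjusted p = 0.00185). Rps20 differed by 1.83 (SE 0.232), the copy Rps3a3 also by 1.83 (SE 0.206), and Rps3a1, which encodes a protein near the message exit, by 1.57 (SE 0.171). Smaller differences passed for Rps14, at 7.18 and 7.14 against 6.19 and 6.42 (0.85, adjusted p = 0.0032), and for Rps19, at 7.66 and 7.85 against 7.17 and 7.24 (0.55, adjusted p = 0.024). Rps10 (0.28), Rps18 (0.41), Rps28 (0.42), Rps9 (0.48) and Rps15 (0.69) did not pass.

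Large-subunit genes were higher in 14 of 18 cases and lower in 0. The Rpl35 row had the largest difference (1.57 on its own-chromosome row), 15.40 and 15.79 against 13.32 and 14.02 (1.93, SE 0.238, adjusted p = 0.000887). Rplp0 had the lowest adjusted p of all members, with both labelled-null arrays at 13.05 and the wild-type arrays at 11.54 and 11.73 (1.41, SE 0.125, adjusted p = 0.000148). Rpl41, the smallest ribosomal protein, was at 17.41 and 17.29 against 15.53 and 15.93 (1.61, SE 0.274). Rpl22, an RNA-binding protein needed for T-cell development, was at 8.46 and 8.64 against 7.16 and 7.38 (1.28, SE 0.172). Rpl11 (0.48, adjusted p = 0.0641) and Rpl38 (0.66, adjusted p = 0.0837) were not called, though their arrays did not overlap. Rpl31 (0.64) and Rpl10a (0.69) completed the 4 that did not pass.

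Rpl7l1 was the member that was lower in labelled-null neutrophils, at 11.20 and 11.03 against 12.26 and 12.13 in wild-type neutrophils (−1.09, SE 0.225, adjusted p = 0.0129). Both labelled-null arrays lay below both wild-type arrays, as in undifferentiated cells. It lost the call when wild-type neutrophil array 1 or labelled Ezh2-null neutrophil array 2 was left out. Its parent gene Rpl7 went the other way, at 8.95 ± 0.0104 (SD, n = 2) against 7.90 ± 0.145 (1.05, SE 0.146, adjusted p = 0.00168). On wild-type differentiation Rpl7 fell by 1.57 and Rpl7l1 by 0.93, and the difference between parent and paralog was not tested.

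**Figure D3:**
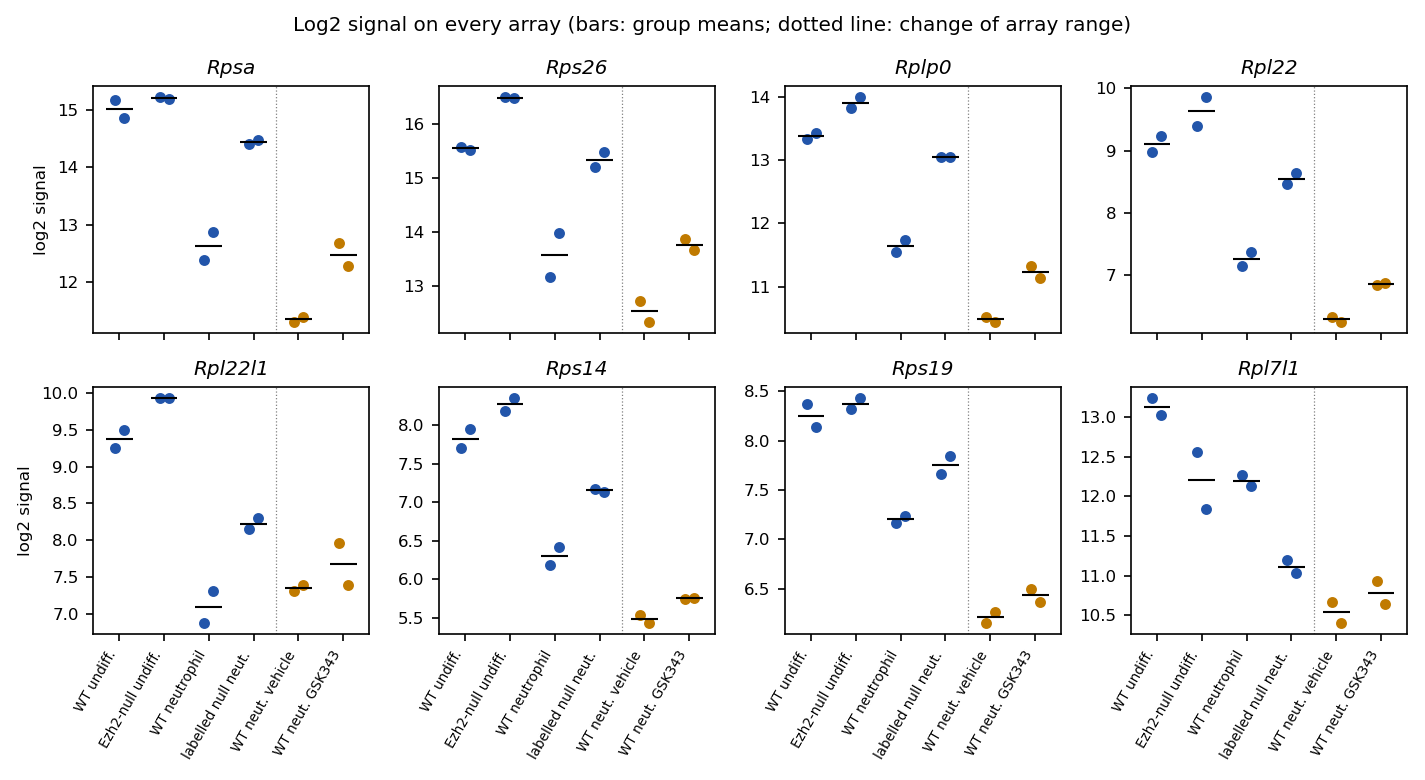
Log2 signal on every array for 8 members, with bars at group means; a dotted line separates the 8 genotype arrays (blue) from the 4 drug arrays (orange), whose levels are not comparable across it. Rpsa, Rps26, Rplp0, Rpl22, Rpl22l1, Rps14 and Rps19 are lowest in wild-type neutrophils among the genotype arrays, while Rpl7l1 is lowest in neutrophils labelled null, at 11.20 and 11.03.

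The difference of the genotype effect between the stages was tested as an interaction, which is also the difference between the differentiation changes of the genotypes. It was positive and passed for 10 members and negative and passed for 0, against 2.77% and 1.65% of all clusters and 8.36% and 4.15% of bright clusters. The median over members was 0.82. The 10 were Rpsa (1.62, SE 0.276, adjusted p = 0.0119), Rpl35 (1.57), Rps3a3 (1.43), Rps3a2 (1.23), Rps3a1 (1.22), Rpl27 (1.16, not called on its own-chromosome row), Rpl8 (1.12), Rpl4 (1.04), Rpl6 (0.96) and Rplp0 (0.88). Rpl8 lies close to the peptidyl transferase centre, and Rpl4 and Rpl6 are among the larger proteins of their subunit. Rps20 missed the threshold (1.38, adjusted p = 0.0504). The count was unstable. Leaving out wild-type undifferentiated array 1 or 2 gave 2 and 1, undifferentiated Ezh2-null array 1 gave 5, wild-type neutrophil array 1 or 2 gave 2 and 16, labelled Ezh2-null neutrophil array 1 or 2 gave 6 and 0, and either vehicle array gave 6.

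Wild-type neutrophil array 2 stood above array 1 by a member median of 0.35, in 37 of 45 members, against 0.03 over bright clusters. The markers differed between arrays 1 and 2 as well. Their mean signals were 17.61 and 16.61 for neutrophil, 9.37 and 10.38 for macrophage and 9.44 and 10.10 for dividing-cell markers. Progenitor markers stood at 7.15 and 7.11. The part of cell state in the gap between these arrays was not tested. Without array 1 the member median was −1.41 for wild-type differentiation and 0.88 for genotype in neutrophils. Without array 2 it was −1.78 and 1.24. Over all leave-one-out fits, 38 to 40 members fell on wild-type differentiation and 24 to 29 were higher in labelled-null neutrophils.

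GSK343 was compared with vehicle in wild-type neutrophils on their own 4 arrays, asking whether inhibiting EZH2 resembles its loss. No member passed the test in either direction by limma. On the whole array 1 cluster did (0.00152% higher, 0% lower, or 0.00967% and 0% of bright clusters). All 45 differences were above 0, against 66.6% of bright clusters, with a median of 0.56. Relative to the bright clusters 41 of 45 were above 0, with a median of 0.43. In 40 members both GSK343 arrays lay above both vehicle arrays, against 19.5% of all clusters and 40.9% of bright clusters. At an unadjusted p under 0.05, 26 members were higher and 0 lower (3.6% and 2.41% of all clusters). The lowest adjusted p of a member was 0.234.

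The Rpl41 row had the highest value, at 16.12 and 15.17 with GSK343 against 13.97 and 14.20 with vehicle (1.56, 95% confidence interval 0.94 to 2.18, adjusted p = 0.234). Its GSK343 arrays were far apart but did not reach the vehicle arrays. This row is not on the gene's own chromosome, and the dimmer Rpl41 row that is gave 0.71 (SE 0.141, adjusted p = 0.279), below the next 2 genes. Rps26 was at 13.87 and 13.66 against 12.72 and 12.34 (1.24, interval 0.67 to 1.80). Rpsa was at 12.68 and 12.28 against 11.31 and 11.39 (1.12, interval 0.68 to 1.56). Rplp0 was at 11.32 and 11.14 against 10.53 and 10.45 (0.75, interval 0.46 to 1.03). For these 4 genes the arrays of the groups did not overlap. The smallest values among standard proteins were those of Rpl4 (0.12), Rpl11 (0.18) and Rps19 (0.22), and Rpl7l1, the exception in the genotype comparison, was at 0.25 (interval −0.26 to 0.76). Rpl4 was at 17.82 and 18.04 with GSK343 against 17.72 and 17.91 with vehicle, and the groups overlapped.

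The genotype comparison in neutrophils and the drug comparison share no arrays, so their members can be set side by side. In 42 of 45 members (93.3%) both differences were positive, against 26.2% of all clusters and 42.8% of bright clusters. Of these comparisons the first called 28 members higher and the second 0. Rpsa stood at 1.81 and 1.12, Rps26 at 1.77 and 1.24, and Rpl4 at 1.06 and 0.12. Rpl41 was at 1.61 and 1.56 (0.96 and 0.71 on its own-chromosome row). Rpl35 was at 1.93 and 0.98 (1.57 and 0.67 on its own-chromosome row). Rpl7l1 (−1.09 and 0.25), Rpl3l (−0.08 and 0.01) and Rpl39l (−0.06 and 0.17) were the members with opposite signs, the last 2 below background. Members also shifted together between replicates of some groups. Array 2 was the higher for 37 of 45 members in wild-type neutrophils and 36 in labelled-null neutrophils. The count was 23 in undifferentiated wild-type and 32 in undifferentiated Ezh2-null cells, 15 with GSK343 and 21 with vehicle. The share of members with 1 sign is therefore not a count of separate observations.

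Rpl22 and its paralog Rpl22l1 moved in the same direction. Rpl22 fell on wild-type differentiation from 8.98 and 9.23 to 7.16 and 7.38 (−1.84, SE 0.172), and Rpl22l1 from 9.26 and 9.51 to 6.88 and 7.31 (−2.29, SE 0.207). In labelled-null neutrophils they were higher by 1.28 and 1.13. Rpl39, whose product lines the exit tunnel, fell by 2.06 and was higher by 1.44, while its testis paralog Rpl39l stayed between 4.14 and 4.56 on the genotype arrays, below background. Rps4x, the X-linked gene of its family, fell from 13.95 and 14.11 to 11.92 and 12.28 (−1.93, SE 0.19) and was higher by 1.21 in labelled-null neutrophils. Rps27l, a target of p53, fell on wild-type differentiation from 10.79 and 10.56 to 8.91 and 8.90 but was not called with genotype in neutrophils (0.36, interval −0.36 to 1.07).

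How far a row reports its own gene limits these values, because ribosomal protein genes have many near-identical processed copies. The cluster names place 37 of the 45 rows on the chromosome of the gene, 6 on another (Rpl7a, Rpl12, Rpl27, Rpl31, Rpl35 and Rpl41) and 2 could not be placed, whereas 99.6% of 22625 single-symbol clusters checked were on their gene's chromosome. Levels of those 8 members, and of Rps3a1, Rps3a2 and Rps3a3, which resemble each other, are therefore uncertain as to source. With the 37 rows alone, 32 members fell on wild-type differentiation and 21 were higher in labelled-null neutrophils. Where a gene had a row on its own chromosome as well, the rows had the same sign on wild-type differentiation: Rpl35 fell by 2.01 there against 2.50 on the brighter row, Rpl27 by 1.67 against 2.22 and Rpl41 by 1.26 against 1.58. The gaps were wider elsewhere. Between neutrophils Rpl27 was higher by 0.81 on its own-chromosome row against 1.53, Rpl41 by 0.96 against 1.61 and Rpl35 by 1.57 against 1.93, and all 3 passed on both rows. For the interaction the own-chromosome row of Rpl27 was not called (0.75, adjusted p = 0.116), that of Rpl41 was (0.89, adjusted p = 0.0397) although its brighter row was not, and that of Rpl35 was called too (1.29, adjusted p = 0.0156). Of the 3 Rps26 rows, the 2 bright ones gave −1.97 each and the third lay below background.

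Outside the rule, 53 rows annotated to a ribosomal protein gene and another symbol, and 202 rows with pseudogene symbols, gave similar values. On wild-type differentiation 52 of the 53 and 178 of the 202 fell, with medians of −1.71 and −1.58. In labelled-null neutrophils 44 and 149 were higher and 0 and 1 lower (medians 1.07 and 1.15), and with GSK343 none passed the test (medians 0.57 and 0.65; at an unadjusted p under 0.05, 41 and 147 higher and 0 and 0 lower). Rpl37rt, a ribosomal protein gene by its updated symbol alone, did not pass in any comparison: it was at 11.28 and 11.09 in undifferentiated wild-type cells, 10.80 and 11.34 in wild-type neutrophils and 11.15 and 11.38 in neutrophils labelled null. A row for Rps23rg1 found the same way lay below background. The rows with several or pseudogene symbols may detect the same messages as the members and are not a separate measurement.

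Genes that build and use the ribosome were taken from lists by function and are described by the same counts, beside the shares of all clusters given above. Ribosome biogenesis genes, which make and process ribosomal RNA, fell in 55 of 56 cases on wild-type differentiation (median −2.67). The largest falls were those of Dkc1, the pseudouridine synthase of box H/ACA particles (−5.77, SE 0.125), Nop58, of box C/D particles (−5.40), and Nolc1, a nucleolar chaperone of both (−4.54). In labelled-null neutrophils 33 of 56 were higher and 0 lower (median 0.86), led by Nop58 (3.37), Dkc1 (3.28) and Nolc1 (2.11). Dkc1 was at 11.14 and 11.13 there, above both wild-type arrays. The median with GSK343 was 0.23.

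RNA polymerase I genes, which transcribe ribosomal RNA, fell in 12 of 13 cases on wild-type differentiation (median −1.42), with Polr1b (−3.88), Polr1c (−2.34) and Rrn3 (−2.17) in front. In labelled-null neutrophils 4 were higher, among them Polr1b (1.28), and 2 lower, Znrd1 (−1.46) and Taf1b (−1.09), with a median of 0.45. Initiation factors fell in 27 of 30 cases and 1, Eif4g3, rose (median −1.60), and in labelled-null neutrophils 19 were higher and 0 lower (median 0.67), led by the eIF3 subunit gene Eif3i (1.54). Genes listed by symbol under elongation and termination fell in 11 of 14 cases (median −1.60). The largest falls on this list were those of Eef1e1 (−3.57), Abce1 (−2.89), whose product splits ribosomes for reuse, and Eef1b2 (−2.84). In labelled-null neutrophils 8 of the 14 were higher and 0 lower (median 0.76). Other TOP messages, some of which are also in the factor lists, fell in 21 of 23 cases, with Nap1l1 lowest (−3.54), and 1, the intermediate filament gene Vim, rose (1.34). In labelled-null neutrophils 18 were higher and 0 lower (median 0.73). Fau, which encodes a small-subunit protein fused to a ubiquitin-like one, fell by 0.72 and was higher by 0.57 with the label.

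Mitochondrial ribosomal proteins form a separate ribosome in the mitochondrion. On wild-type differentiation 59 of 75 fell and 1, Mrpl33, rose (median −1.19). In labelled-null neutrophils 12 were higher, with Mrpl35 (1.39) first, and 2 lower (median 0.28), and the median with GSK343 was 0.14. On differentiation of cells labelled Ezh2-null 50 fell and 1 rose, with a median of −0.85. The members' medians in these 4 comparisons were −1.61, 1.05, 0.56 and −0.78, so the mitochondrial median was nearer 0 in the first 3 and not in the last, and the difference between the lists was not tested.

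Regulators of ribosome production did not move as a group. On wild-type differentiation 5 of 15 fell and 2 rose (median −0.32). Myc, the transcription factor of growth, fell from 13.29 and 13.30 to 5.83 and 6.49 (−7.14, SE 0.286, adjusted p = 5.51e-07). Larp1, the TOP-binding protein, fell by 2.56, and Mdm2, the ligase that Rpl11 can inhibit, rose by 1.25. In labelled-null neutrophils Myc was at 9.55 and 10.36, above both wild-type arrays (3.79, SE 0.286, adjusted p = 5.87e-05). Larp1 was higher by 1.58 and Deptor, an mTOR inhibitor, was lower by 1.14. With GSK343 no regulator passed limma's test, and 0 did so in either direction at an unadjusted p under 0.05. Myc was at 6.83 and 6.75 against 6.62 and 6.44.

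**Figure D4:**
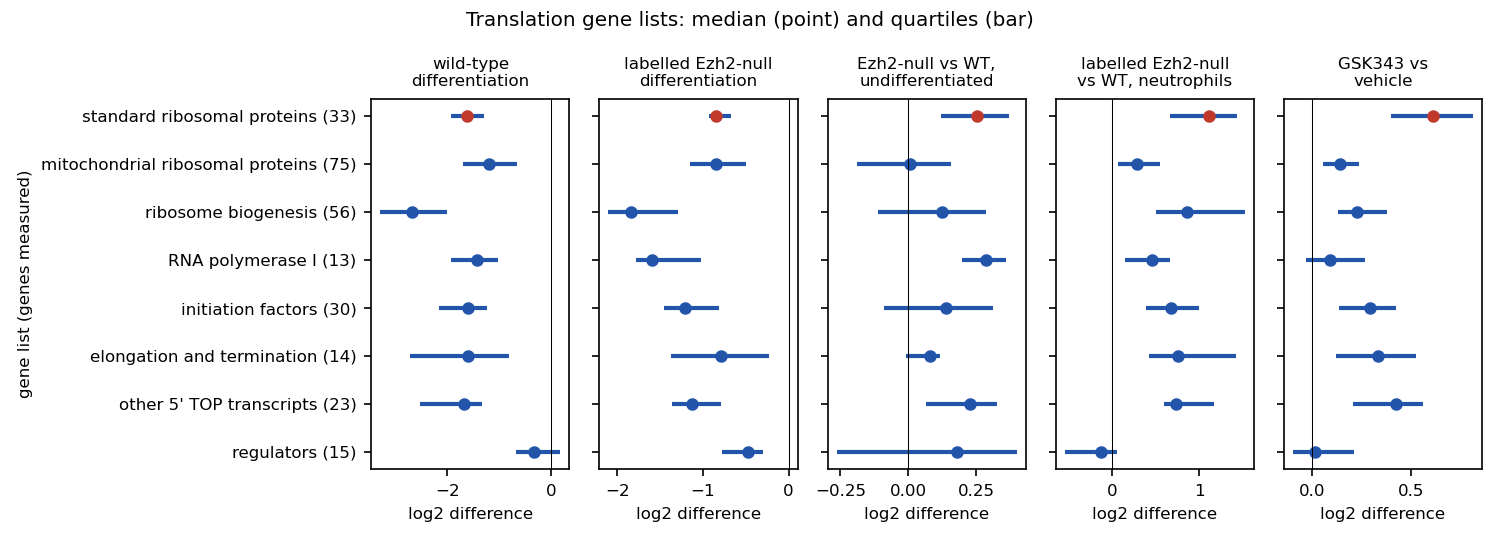
Median (point) and quartiles (bar) of the log2 difference of 8 gene lists in 5 comparisons; the horizontal scale differs between panels. Standard ribosomal proteins (red, 33 genes) have medians of −1.61, −0.85, 0.25, 1.11 and 0.61, and ribosome biogenesis genes have the lowest medians of both differentiation comparisons, −2.67 and −1.84.

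Markers of other states and cell types moved alongside. Dividing-cell markers fell in 4 of 4 cases on wild-type differentiation (median −3.50) and were higher in labelled-null than in wild-type neutrophils in 4 of 4 (median 3.54). Their mean signal was 13.23 and 13.47 in labelled-null neutrophils, 13.43 and 12.87 in undifferentiated Ezh2-null cells, 9.44 and 10.10 in wild-type neutrophils, and 13.50 and 13.23 in undifferentiated wild-type cells. Progenitor markers were higher in labelled-null neutrophils in 4 of 6 cases (median 2.58), led by Kit (5.35). Mast cell and basophil markers were higher in 6 of 6, with 6 of 6 above background on each labelled-null neutrophil array and 1 of 6 on each wild-type one. Erythroid markers were also higher in 6 of 6, and again 6 of 6 against 1 of 6 lay above background. Macrophage markers were lower in 4 of 6 (median −1.71) and neutrophil markers in 2 of 8, Camp (−4.74) and Ltf (−1.99). On differentiation macrophage markers rose in 5 of 6 cases in wild-type cells (median 4.42) and in 4 of 6 in cells labelled Ezh2-null (median 1.81). Lymphoid markers were below background on all 12 arrays for 3 of 3 genes. The part of these cell states in the ribosomal protein values of labelled-null neutrophils was not tested.

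With GSK343, dividing-cell markers were above vehicle in 4 of 4 cases (median 0.51), progenitor markers in 6 of 6 (median 0.92) and neutrophil markers below it in 8 of 8 (median −0.39), with 0 of these called by limma. At an unadjusted p under 0.05 the counts were 1, 3 and 2. The mast cell gene Cpa3 was the cluster that passed on this contrast (2.99, SE 0.224, adjusted p = 0.0187). Dividing-cell markers averaged 11.29 and 11.36 with GSK343 and 10.70 and 10.83 with vehicle. Their part in the ribosomal protein values was not tested.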

How the data were processed

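Per the labels, 250 ng of RNA from each sample went onto an Affymetrix mouse transcriptome microarray. The deposited values are log2 signals for 72688 entries, as their range shows, made with Affymetrix Expression Console and Transcriptome Analysis Console, per the submitters' processing notes. How probes were summarised and normalised, and on which build, is not given in the sources used here. After removing 6732 control probe sets, 65956 clusters were tested, 30604 with 1 distinct symbol in the annotation, 2146 with several and 33206 with none.

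The deposited log2 values were fitted without further normalisation with limma 3.58.1 (R 4.3.3): 6 group means over 12 arrays, residual df 6, prior df 3.06, 6 contrasts, Benjamini-Hochberg adjustment over all clusters. All adjusted p-values and SEs are limma's. The fitting script was tested on simulated data. Array number limits precision. Named were members with set roles, paralogs and their parents, up to 5 called members per direction and comparison, members below background, and up to 3 called genes per direction in each other list. Bright clusters, quoted members beyond this rule, and the class of copies were chosen after values were seen. Members and lists were chosen with earlier results of these data known. Alternatives covered scaling, filtering, the variance model, the arrays fitted, replicate block, rows per gene, member list and leaving out each array. The correlation of replicate differences between groups ran from −0.25 to 0.19 over all clusters and from −0.30 to 0.39 over bright clusters (0.39 between the undifferentiated groups, 0.30 between the genotype neutrophil groups). No label ties the numbers to a shared culture or day, and not every pair was positive, so they were not taken to pair samples.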

Additional observations from a re-analysis of the deposited data

Results flagged for a closer look

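The effect of the genotype label on ribosomal protein genes differed between stages by the interaction test for 10 members, all with positive values. Positive interactions were called for 2.77% of all clusters and 8.36% of bright clusters. The differences of the log2 genotype difference, neutrophils minus undifferentiated cells, were 1.62 for Rpsa, 1.57 for Rpl35, 1.43 for Rps3a3, 1.23 for Rps3a2, 1.22 for Rps3a1 and 1.16 for Rpl27, whose row on its own chromosome was not called (0.75, adjusted p = 0.116). They were 1.12 for Rpl8, 1.04 for Rpl4, 0.96 for Rpl6 and 0.88 for Rplp0. All 10 were higher in labelled-null than in wild-type neutrophils, a difference that is itself part of the interaction. None was called between undifferentiated cells, where no member of the full set was called either. With an intensity trend and robust prior in limma, 1 of them, Rpsa, passed, and without labelled Ezh2-null neutrophil array 2, 0 passed.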

How the results depend on the processing

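Across the alternatives run no called direction turned among the members checked gene by gene. These were Rpsa, Rpl35, Rps20, Rpl12, Rpl27, Rps26, Rplp0, Rpl22, Rpl22l1, Rpl7l1, Rpl41, Rps27l, Rps14, Rps19, Rpl11, Rpl38 and Rps3a1. Other genes were not checked this way. Of the values checked, 2167 kept their side of the threshold, while 96 lost the call and 23 gained it. The member-list alternatives reuse the main fit, so no call could change there and their part of the 2167 was fixed beforehand. In many of these alternatives a direction could not turn. The filter, variance model, replicate block, compared-arrays and member-list alternatives leave each difference as it was. Leaving out an array does not move a difference between other groups. Only rescaling, averaging the rows of a gene or dropping an array of the groups compared could turn a direction. The members that fell on wild-type differentiation numbered 39 to 40 under each scaling, filter, variance model and block, and those higher in labelled-null neutrophils 26 to 30. The interaction count of 10 became 6 with quantile normalisation, 5 with centring on bright clusters, 2 with only the arrays compared, 1 with a trend and robust prior, and 6 with rows on the gene's own chromosome, an alternative added after seeing the data. Centring on bright clusters gave 2 members higher on wild-type differentiation, and 1 higher and 13 lower on labelled-null differentiation, where fitting only the arrays compared gave 12 lower. The replicate block, run although the numbers were not taken to pair the samples, gave 1 member lower between undifferentiated cells, Rpl7l1, and moved no other count by over 1.5 times; it gave 40 members lower on wild-type differentiation, 28 higher in labelled-null neutrophils and 12 positive interactions. With core members only, or standard proteins only (added after seeing the data), 0 members were lower in labelled-null neutrophils. This was fixed beforehand, since the 1 such member, Rpl7l1, is a paralog and both lists leave paralogs out. Leaving out each array gave 0 to 1 members higher and 12 to 34 lower on labelled-null differentiation, 0 to 2 higher and 0 to 1 lower between undifferentiated cells, 24 to 29 higher and 0 to 1 lower between neutrophils, 0 to 16 positive interactions and 0 with GSK343; where it left a group with 1 array, that array was assumed to vary like the other groups. The causes of these moves were not tested. With 2 arrays a group, differences under 1 log2 unit were often not called.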
